A study of Mus musculus with 182 samples.

Results

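Heat shock chaperones of the cytosol and the mitochondrion were followed across 182 single germinal centre B cells, the dividing and mutating B cells that are selected in the spleen after immunisation. The members were 7 genes chosen by symbol, Hspa8, Dnaja1, Hsph1, Hsp90aa1, Hsp90ab1, Hspd1 and Hspe1, out of 17034 symbols in the table, and each matched 1 row. The cells came from C57BL/6 mice given 100 μg NP(23)-KLH, a hapten on a carrier protein, in 50% alum with 1 μg LPS by intraperitoneal injection, and spleens were taken on day 13. Splenocytes carrying T cell markers, CD11c or IgD were first removed with magnetic beads. The sample labels describe the sorted cells as B220+, high in Fas and GL7 and NP-binding, whereas the design text gives the gate by B220, Fas and GL7 and lists NP among the stains. Each cell was captured on a Fluidigm C1 chip and gave 1 library made with SMARTer and Nextera XT chemistry.

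All 182 cells formed 1 group. The labels name no animal and no other group, so all stand for 1 biological sample, and every relation across cells is given as a description with no p-value. The columns fell into 2 sets by their values, with cells 1 to 96 in set 1 (96 cells) and cells 97 to 182 in set 2 (86 cells), numbered by the names of their columns. Each gene had a lowest value in each set, its floor, at which many cells stood together. Among pairs of cells drawn from the same set, a median of 71.8% of genes not at 0 in both had exactly equal values, against 0% among pairs drawn across sets, so the sets had been scaled apart and a level set across them is not a measured difference. Whether the sets are capture runs or animals is unknown. Cells of set 1 had a median of 2666 genes above the floor (1904 to 4495) and cells of set 2 a median of 2188.5 (980 to 5149). This number serves as the only measure at hand of how much of a cell was captured. Markers of the labelled cell type were present, with 7 of 8 B cell markers and 4 of 8 germinal centre markers detected in over 50% of cells. Summed over its 8 genes, the B cell list ranged from 2.77 to 34237 in set 1 and from 411 to 20699 in set 2. Of the T cell markers, Cd3d and Cd4 were detected in 0 cells and Lck in 99 (54.4%), and of 5 plasma cell markers Xbp1 was detected in 46 cells (25.3%), Irf4 in 24 (13.2%), Prdm1 and Sdc1 in 2 each and Tnfrsf17 in 1. No myeloid marker was found in more than 8.24% of cells.

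Chaperones bind unfolded or partly folded proteins and let them fold. HSP70 proteins such as Hspa8 work in cycles of ATP binding and hydrolysis, which J-domain proteins such as Dnaja1 start and HSP110 proteins such as Hsph1 help to reset by exchanging the nucleotide. HSP90 proteins take over partly folded clients, among them kinases and steroid receptors, with the help of co-chaperones, while Hspd1 and Hspe1 form the barrel and the lid of the chaperonin inside mitochondria. In a stressed cell, the transcription factor HSF1 binds heat shock elements, which are alternating GAA and TTC units spaced by 2 bases, before many of these genes.

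Those elements are shown first, because they are a sequence feature of the members that the choice by symbol did not use. Promoter windows of 300 bases (250 before to 50 after the start site, RefSeq, GRCm38.p6, the same build as mm10) were matched for 4 of the 7 genes, with 8 windows in all. On both strands, GAANNTTC and TTCNNGAA were searched, each of which is its own reverse complement, and so were 3 alternating units, GAANNTTCNNGAA or TTCNNGAANNTTC, which contain both. In the sequences the capitals mark the GAA and TTC units.
Hspd1, chr1:55088054-55088081, minus strand: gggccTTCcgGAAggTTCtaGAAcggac
Hspe1, chr1:55088054-55088081, plus strand: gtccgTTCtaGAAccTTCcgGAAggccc
Dnaja1, chr4:40722339-40722356, plus strand: ctctaGAAaaTTCtacga
Hsph1, chr5:149636357-149636374, minus strand: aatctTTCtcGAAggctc
Hsph1, chr5:149636283-149636305, minus strand: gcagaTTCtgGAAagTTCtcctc

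Hspd1 and Hspe1 carried 1 run of 4 units between them. These genes lie head to head on chromosome 1 (mm10, 55077835 to 55088243 on the minus strand for Hspd1, and 55088132 to 55091307 on the plus strand for Hspe1), and the same bases stand at positions -89 to -72 before the start of Hspe1 and -144 to -127 before the second annotated start of Hspd1. They lie inside the transcribed part of Hspd1 when counted from its first start, whose own window held 0 motifs. Hsph1 had 3 units 15 to 27 bases past the start of its second window's transcript, inside the transcribed part, and 2 units at -33 from its first start. Dnaja1 had 2 units at -124 in the first of its 3 windows. A run of 3 units or more was found for 3 of the 4 matched chaperones, Hspd1, Hspe1 and Hsph1, against 0.662% of all 27025 genes (0.603% of 32851 windows). Either motif of 2 units was found for 4 of 4, against 17.0% of genes. A match of letters is a description and shows no binding.

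The 7 genes split into 3 found in most cells and 4 found in a minority. A gene was called detected at a value of 1 or more. The number of genes so called was nearly the same in all set 1 cells, at 1873 to 1946 (median 1904), and 995 to 1741 (median 1690) in set 2. In set 1 the cutoff thus took a similar number of genes from each cell, although genes above the floor ranged from 1904 to 4495. Shares therefore depend on the unknown scaling. Of all 17034 genes, 645 (3.79%) were detected in over 50% of cells, as were 3 of the 7 members. The median share of cells over the members was 29.1%, against 3.85% over all 17034 genes and 24.2% over the 4638 genes detected in at least 10% of the cells of both sets. The deposited values have no stated starting unit and no known scaling by transcript length, so levels are compared between cells and not between genes. Intervals are exact Clopper-Pearson 95% intervals over cells and cover counting error only.

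Hspa8, the constitutive cytosolic HSP70 (chromosome 9, 40800984 to 40810087), was detected in 157 of 182 cells (86.3%, 80.4 to 90.9). Its lowest, median and highest normalized values were 0, 45.0 and 860 in set 1, and 0.327, 32.6 and 602 in set 2. Most cells of both sets held it well above 1, with quartiles of 11.2 and 109 in set 1 and 5.52 and 103 in set 2, and 25 cells lay below 1. Dnaja1, its J-domain partner (chromosome 4, 40722150 to 40737149), was detected in 39 cells (21.4%, 15.7 to 28.1). Values of Dnaja1 ran from 0.0137 through a median of 0.0242 to 21.1 in set 1, and from 0 through 0 to 30.9 in set 2. In both sets most cells were near the floor, and no cell reached 100. Hsph1, the HSP110 exchange factor (chromosome 5, 149614287 to 149636376), was detected in 53 cells (29.1%). Its lowest, median and highest values were 0, 0 and 431 in set 1, and 0.0351, 0.0351 and 235 in set 2. Among the 53 cells with Hsph1 the median was 9.57, so a cell either stood at the floor or held values over a wide range.

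Hsp90ab1, the constitutive HSP90 (chromosome 17, 45567775 to 45573271), was at 1 or more in 182 of 182 cells. That share follows in part from its floors of 2.04 in set 1 and 2.17 in set 2, which lie above 1, but 180 cells stood above the floor and 83.0% reached 100. The lowest, median and highest values were 2.04, 632 and 4688 in set 1, and 2.17, 447 and 5979 in set 2. Even the lower quartiles, 265 in set 1 and 132 in set 2, lay far above the floor. Hsp90aa1, the stress-inducible HSP90 (chromosome 12, 110690605 to 110702728), was detected in 140 cells (76.9%, 70.1 to 82.8). Its lowest, median and highest values were 0, 7.31 and 736 in set 1, and 0.249, 7.90 and 458 in set 2. The distributions of both sets overlapped nearly throughout.

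Hspe1, the lid of the mitochondrial chaperonin, was detected in 52 cells (28.6%) and Hspd1, its barrel, in 32 (17.6%, 12.3 to 23.9). Hspe1 had a lowest, median and highest value of 0, 0 and 1518 in set 1 and of 0.0344, 0.0344 and 361 in set 2. Hspd1 had 0, 0 and 321 in set 1 and 0.0112, 0.0112 and 366 in set 2. In most cells both genes were at or near the floor. A low share need not mean absence. Gapdh, a glycolytic enzyme used by cells in general, reached 1 in only 30 cells (16.5%). The other housekeeping genes compared, Actb, B2m, Tubb5 and Eef1a1, reached it in 97.3% to 100%. Whether the low chaperone shares reflect missed capture was not tested. RefSeq names 23 pseudogenes of Hspd1, 6 of Hspe1 and 1 of Dnaja1, none of them a row of the table, and the handling of reads shared with such copies is not given in the sources used here. By position the 5′ ends of Hspd1 and Hspe1 overlap, and the use of strand in counting is not given either.

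**Figure D1:**
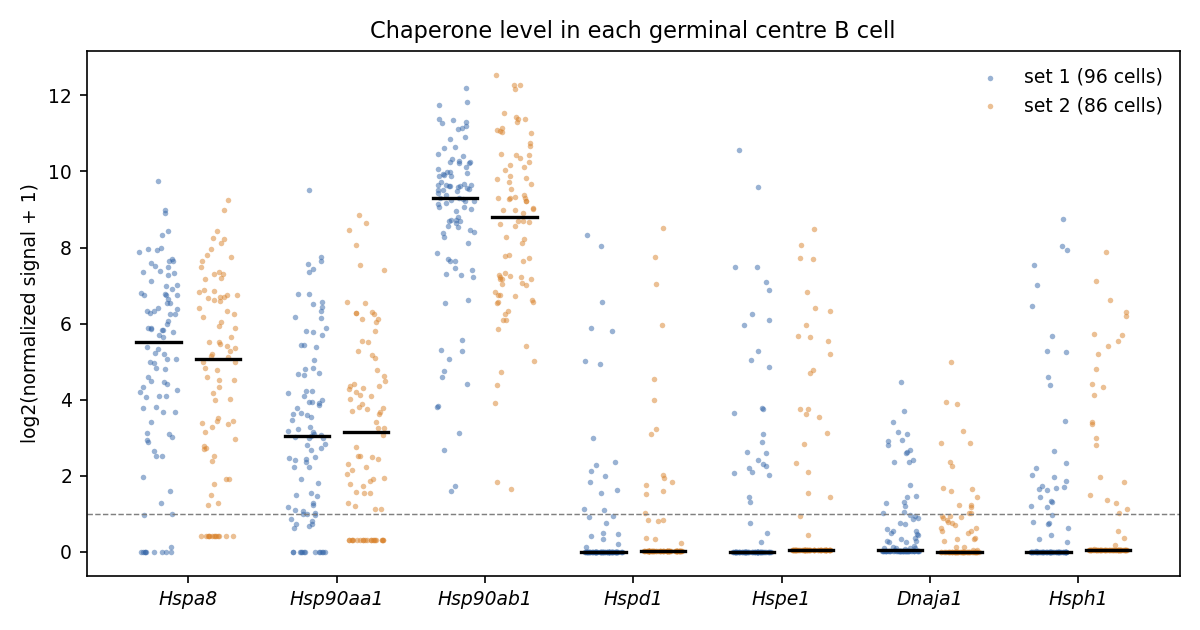
Normalized value of each chaperone, as log2(signal + 1), with 1 point per cell, set 1 left of set 2 and black lines at the medians. The dashed line is a value of 1. Hspa8, Hsp90aa1 and Hsp90ab1 have most cells above it, and the other 4 genes have most cells below it.

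Shares of the members were alike in both sets. The difference, set 1 minus set 2, lay between 0 points for Hsp90ab1 and 3.15 points for Dnaja1 (22.9% in set 1, 19.8% in set 2), with a median of 1.26 points. None of the 7 differed by 10 points or more, while 23.8% of the 4638 commoner genes were at least 10 points higher in set 1 and 2.05% at least 10 points lower. The median difference over those genes was 4.12 points. Above the floor in place of a value of 1, the difference reached 10.9 points for Hsp90aa1.

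Cells differed in how many of the 7 they held together. A median of 4 were detected per cell in set 1 (range 2 to 6) and 3 in set 2 (1 to 7). Only 1 of the 182 cells, in set 2, held all 7, and 63 cells held 3. Cells with 5 or more numbered 24 in set 1 and 19 in set 2. The cell with the highest Hsp90ab1 (5979, cell 182) also ranked 3 of 182 for Hspe1 (361), 6 for Hsph1 (137) and 17 for Hsp90aa1 (92.1), and it had 4105 genes above the floor. By contrast, the cell with the highest Hspa8 (860, cell 7) had an Hsp90ab1 value of 96.9, rank 153 of 182, and Hspd1, Hspe1 and Hsph1 at 0.

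Chaperone pairs went together weakly. Spearman's rho was taken across the cells of each set, since the sets had been scaled apart, and the mean of both sets is given. Capture still varied widely within a set, with 1904 to 4495 genes above the floor in set 1 and 980 to 5149 in set 2. Over the 21 pairs the median rho was 0.14 (0.13 in set 1, 0.14 in set 2), and 20 were above 0. Over all 10753203 pairs of the commoner genes the median was 0.016, and 6159405 were above 0. A pair was counted when rho reached 0.2 in both sets, which 3 of the 21 did, against 0.731% of all pairs. No chaperone pair reached -0.2 in both sets, as 0.176% of all pairs did.

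The 3 pairs cross the classes of chaperone, as most of the 21 pairs do. Hsp90ab1 and Hspe1 had rho of 0.30 in set 1 and 0.31 in set 2. Hsp90aa1 and the J-domain protein Dnaja1 had 0.22 and 0.27, and Hspd1 and Dnaja1 had 0.25 and 0.21. These ranks also order values below 1. Hspd1 and Dnaja1 were detected together in 9 cells, against 6.86 if independent within the sets, and Hsp90aa1 and Dnaja1 in 34, against 30.0. Pearson's r of log2(signal + 1) was 0.18 and 0.10 for Hspd1 and Dnaja1, and 0.10 and 0.35 for Hsp90aa1 and Dnaja1. The barrel and lid pair, Hspd1 and Hspe1, had the highest mean (0.31), but its rho was 0.44 in set 2 and 0.17 in set 1, which left it uncounted. Both parts of that chaperonin were detected together in 18 cells, against 9.14 cells if they had been independent within the sets. Joint detection was not compared over all gene pairs, and both genes also moved with the number of genes above the floor. Hsp90aa1 and Hsp90ab1, the inducible and constitutive HSP90, had 0.29 in set 1 and 0.02 in set 2.

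Hspa8 had the lowest mean rho with the other 6 members in set 1 (-0.03) but not in set 2 (0.14), where Hsph1 had the lowest (0.06). Over both sets the mean was 0.05 for Hspa8, 0.08 for Hsph1 and 0.14 to 0.19 for the rest. For Hspa8, rho with the other 6 lay between -0.10 and 0.11 in set 1 and between -0.00 and 0.23 in set 2, and with Hsph1 its mean was -0.00, the only pair not above 0. With Hsp90aa1 it had -0.10 in set 1 and 0.21 in set 2, and with Hsp90ab1 -0.07 and 0.23. Within a single set, 6 pairs passed 0.2 in set 1 and 6 in set 2, against 5.08% and 7.63% of all gene pairs.

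The number of genes above the floor moved with several members. Its rho was 0.47 in set 1 and 0.37 in set 2 for Hspe1, 0.40 and 0.21 for Hsp90ab1, 0.27 and 0.24 for Hspd1, and 0.18 and 0.21 for Hsph1. Hsp90aa1 had 0.27 and -0.06, Dnaja1 0.24 and 0.04, and Hspa8 0.10 and -0.07. The median over the commoner genes was 0.10 in set 1 and 0.14 in set 2, so Hspe1 stood well above a usual gene and Hspa8 at or below it. With that number held fixed by partial rho, the median over the 21 pairs was 0.10, and 0 pairs passed 0.2 in both sets, against 0.311% of all gene pairs. Of the pairs counted before, Hsp90aa1 and Dnaja1 then had a mean of 0.21, and Hsp90ab1 and Hspe1 0.20. Hspd1 and Dnaja1 also had 0.20, with 0.198 in set 1 and 0.206 in set 2. Hspd1 and Hspe1, not counted before, had 0.22.

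**Figure D2:**
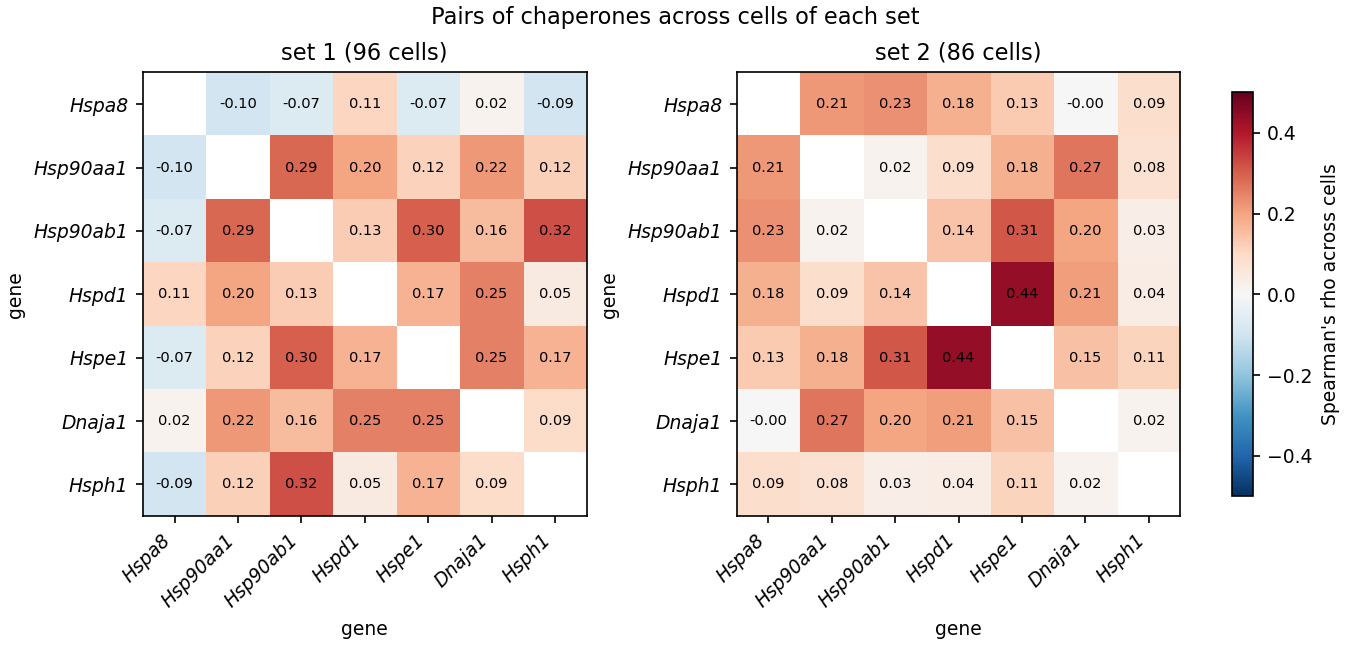
Spearman's rho for each pair of chaperones across the 96 cells of set 1 (left) and the 86 cells of set 2 (right), with the colour scale from blue (below 0) to red (above 0). Hspe1 with Hsp90ab1 is near 0.30 in both panels, while the row of Hspa8 is mostly below 0 in set 1 and mostly above 0 in set 2.

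As for nearly all genes, no chaperone passed 0.2 or -0.2 in both sets with the zone scores of the germinal centre. The light zone is where B cells are tested for antigen and T cell help, and the dark zone is where they divide and mutate. Each list was scored as the mean z-score of log2(signal + 1) over its members, chaperones left out. With the light zone score, of 17 genes such as Cd83, Cd86 and Egr1, the median rho over the 7 was -0.12 in set 1 and 0.09 in set 2. In set 1, 6 of 7 were below 0, the lowest being Hsp90aa1 at -0.20. In set 2 all 7 were above 0, up to 0.18 for Hsp90ab1. The median over 4621 commoner genes was -0.017 in set 1 and 0.0076 in set 2, and their signs were not counted. None of the 7 passed 0.2 in both sets in either direction, against 0.281% of genes upward and 0.216% downward. With the dark zone score, of 7 genes such as Cxcr4 and Foxo1, the medians were 0.08 in set 1 and -0.10 in set 2, and again none passed (0.54% and 1.4% of genes). Hspd1 came closest, at -0.16 in set 1 and -0.25 in set 2.

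Single zone markers also gave small values. Across the 28 relations of the 7 chaperones with Cxcr4, Foxo1, Cd83 and Cd86, none reached 0.2 or -0.2 in both sets. Few genes of any kind did, so this does not set the members apart. Over all genes the shares past 0.2 were 0.194% for Cxcr4 and for Foxo1 and 0.129% for Cd83 and for Cd86. The shares past -0.2 were 0.0431% for Cxcr4, 0.151% for Foxo1, 0.173% for Cd83 and 0.194% for Cd86. For example, Hspa8 with Foxo1 had -0.14 in set 1 and -0.20 in set 2, and Hsph1 with Cd86 had -0.21 and -0.09.

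Relations with division reached 0.2 for some members in set 1 and for none in both sets. Hsp90aa1 with the S phase score, 36 genes of DNA copying, had rho of 0.36 in set 1 and 0.17 in set 2. Hsp90ab1 had 0.35 and 0.00 with the S phase score, and 0.36 and -0.00 with the G2/M score, 49 genes of late division and mitosis. No member passed 0.2 or -0.2 in both sets with either score, against 2.54% of genes upward and 1.02% downward for S phase and 3.38% and 0.479% for G2/M. Mki67, a marker of cycling cells, had 0.31 with Hsp90ab1 in set 1 and -0.12 in set 2. Top2a, which untangles copied DNA, had 0.26 and 0.04 with the same gene. Hspd1 went the other way in set 2, at -0.29 with Mki67 and -0.29 with Top2a, against -0.05 and 0.02 in set 1. No chaperone passed 0.2 or -0.2 in both sets with Mki67 (0.992% of genes upward, 1.29% downward) or with Top2a (2.72% and 0.518%). The differences between sets were not tested. Both markers were detected in over 80% of cells of each set, so few cells without them were available.

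Hsp90ab1 and Hspe1 were the members in every relation counted with scores of growth and protein turnover. Hsp90ab1 followed the ribosome biogenesis score, 11 nucleolar genes, at 0.37 in set 1 and 0.20 in set 2, against 0.454% of genes. Given the number of genes above the floor it still had 0.31 and 0.23. With the proteasome score, 25 subunits of the protease that removes tagged proteins, Hsp90ab1 had 0.31 and 0.36 and Hspe1 0.25 and 0.32, where 9.69% of genes passed. Hspe1 followed the respiratory chain and ATP synthase score, 28 genes, at 0.38 and 0.32, where 10.4% passed. With so few members counted, neither the proteasome nor the respiratory chain is shown to differ from its share of all genes. None of the 7 passed -0.2 in both sets with these scores, as 0.324% of genes did for ribosome biogenesis, 0.802% for the proteasome, 1.13% for the respiratory chain and 0.497% for the score of TRiC and prefoldin that follows.

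These last scores rose with the number of genes above the floor themselves, at 0.62 in set 1 and 0.54 in set 2 for the proteasome and 0.54 and 0.59 for the respiratory chain. With it held fixed, Hspe1 had 0.17 and 0.14 with the respiratory chain and -0.05 and 0.15 with the proteasome, and Hsp90ab1 had 0.09 and 0.30 with the proteasome, so none of these reached 0.2 in both sets. The score of TRiC and prefoldin, the cytosolic chaperonin and the complex that hands it new actin and tubulin chains, was passed by Hsp90ab1 (0.51 and 0.25) and Hspe1 (0.21 and 0.26), against 6.46% of genes. So few members are not shown to differ from that share. Given genes above the floor, Hsp90ab1 had 0.42 and 0.17 with TRiC and prefoldin, and Hspe1 0.03 and 0.09. The immediate early score, 9 genes of the rapid response to stimulation, was followed by none of the 7 (0.0648% of genes upward, 1.49% downward). Its rho was lowest for Dnaja1 (-0.28) and Hsp90ab1 (-0.27) in set 1, and those genes had 0.15 and -0.04 in set 2.

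**Figure D3:**
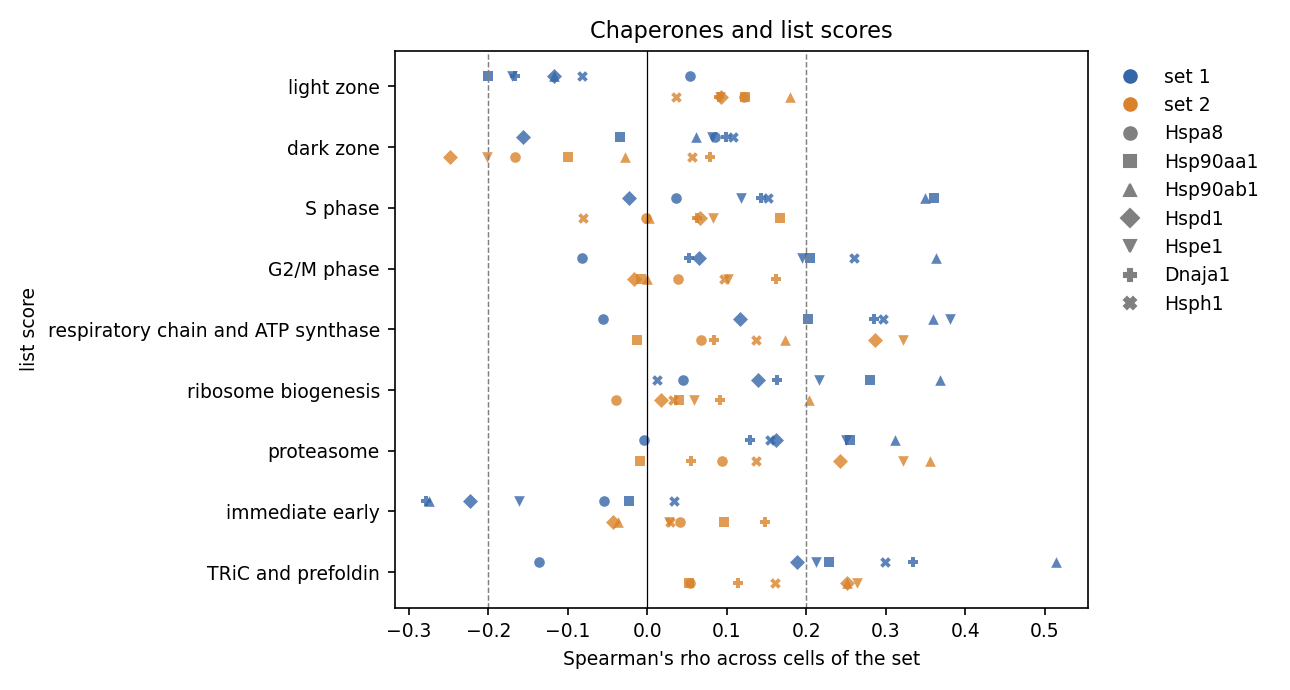
Spearman's rho of each chaperone with each list score across the cells of set 1 (blue) and set 2 (orange), with dashed lines at -0.2 and 0.2. The light zone row has 6 of 7 blue points below 0 and all 7 orange points above it, and Hsp90ab1 and Hspe1 are past 0.2 in both sets in the proteasome and TRiC rows.

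Hsp90ab1, Hspe1 and Hsph1 had rho of 0.2 or more with Myc in both sets. Myc is the growth regulator that marks germinal centre B cells recently selected for further division, and it was detected in 12 cells of set 1 and 22 of set 2. Of the 49 relations between 7 chaperones and 7 single markers, 3 passed 0.2 in both sets and all 3 were with Myc, where 1.36% of genes passed. None passed -0.2 with Myc, as 0.0431% of genes did. Their rho was 0.38 in set 1 and 0.22 in set 2 for Hsp90ab1, 0.23 and 0.32 for Hspe1, and 0.28 and 0.26 for Hsph1. Hspa8 had -0.10 and 0.06, Hsp90aa1 0.18 and -0.02, Dnaja1 0.14 and 0.04, and Hspd1 0.20 and 0.08.

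Hsp90ab1 ran from 277 through a median of 1132 to 3642 in the 12 set 1 cells with Myc, against 2.04, 585 and 4688 in the 84 without. In set 2 it ran from 2.55 through 867 to 5979 in the 22 cells with Myc, against 2.17, 399 and 2974 in the 64 without. The cells overlapped widely. The cells with Myc in set 1 lacked the low end, but they were only 12 against 84, and in set 2 the cells with Myc reached down to 2.55. Hspe1 was detected in 5 of 12 cells with Myc (41.7%) and 23 of 84 without (27.4%) in set 1, and in 10 of 22 with (45.5%) and 14 of 64 without (21.9%) in set 2. Hsph1 was detected in 6 of 12 cells with Myc and 22 of 84 without in set 1, and in 8 of 22 with (36.4%) and 17 of 64 without (26.6%) in set 2. Median Hspe1 stayed below 1, at 0.103 with Myc against 0 without in set 1, and 0.481 against 0.0344 in set 2. For Hsph1 the medians were 1.25 against 0, and 0.0454 against 0.0351. The highest Hsph1 value was in cells without Myc in both sets, as was the highest Hspe1 in set 1 but not in set 2.

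Cells with Myc also had more genes above the floor, with a median of 2842 against 2662.5 without in set 1 and 2348.5 against 2065.5 in set 2. Myc itself had a rho of 0.22 in set 1 and 0.40 in set 2 with that number. The partial rho given it was 0.32 and 0.16 for Hsp90ab1, 0.15 and 0.20 for Hspe1, and 0.25 and 0.20 for Hsph1, so that none reached 0.2 in both sets. Without the 10% of cells lowest in genes above the floor, the values were 0.40 and 0.22, 0.27 and 0.29, and 0.29 and 0.24. With ranks over all 182 cells together, in which the floors of the sets differ, rho was 0.26 for Hsp90ab1 but 0.0048 for Hspe1 and 0.0071 for Hsph1.

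**Figure D4:**
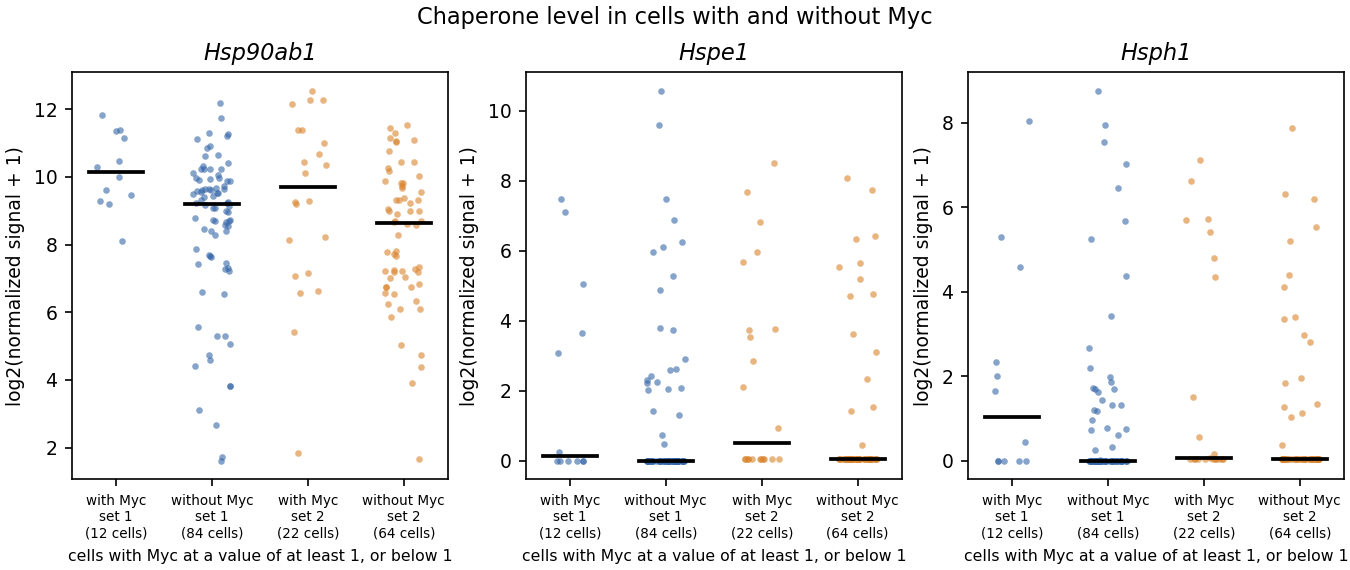
Hsp90ab1, Hspe1 and Hsph1 as log2(signal + 1) in cells with and without Myc at a value of 1 or more, 1 point per cell, with black lines at the medians. Cells with Myc stand left of cells without in each set, and the Hsp90ab1 medians are higher with Myc in both sets (1132 against 585, and 867 against 399).

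The wider chaperone network was present in part. Hspa1a, a stress-inducible HSP70, was at 1 or more in 3 cells (1.65%), and its near-identical copy Hspa1b was not analysed here. Of the small heat shock proteins, 5 of 9 were in the table and each was found in under 10% of cells, and Hspb8 never exceeded 0.911. TRiC and prefoldin were the most widely detected of the networks, with a median share of 44.5% over 13 genes. In the endoplasmic reticulum, whose chaperones fold secreted and surface proteins such as antibody, Canx was detected in 133 cells, Calr in 130, Hsp90b1 in 125 and Hspa5 in 116.

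Relations with the 7 members were counted over network genes detected in at least 10% of the cells of both sets. A gene was counted when it reached 0.2 in both sets with at least 1 of the 7, as 8.36% of all genes did. For TRiC and prefoldin, 5 of 13 were counted (Cct3, Cct4, Cct6a, Pfdn2 and Pfdn4), and all 13 had a mean rho with the 7 above that of the median gene (0.032). Pfdn4 with Hsp90ab1 had 0.39 in set 1 and 0.35 in set 2, Pfdn2 0.30 and 0.28, and Cct4 0.34 and 0.27. Given genes above the floor, the mean rho with the 7 was 0.16 in place of 0.19 for Pfdn4, 0.13 in place of 0.18 for Pfdn2 and 0.040 in place of 0.10 for Cct4. For the HSP90 co-chaperones, 3 of 15 were counted and 12 lay above the median gene. These 3 were Stip1, which links HSP70 to HSP90 (0.29 and 0.21 with Hsp90ab1), Ptges3, known as p23, which stabilises the closed HSP90 (0.25 and 0.28), and Nudc (0.20 and 0.32). Their mean rho with the 7, given genes above the floor, was 0.073 in place of 0.15, 0.085 in place of 0.16 and 0.12 in place of 0.18.

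Inside mitochondria, Hspa9, the HSP70 that pulls proteins in, had 0.27 and 0.22 with Hspd1, and Dnaja3, its J-domain partner, had 0.30 and 0.28 with Hspe1. Trap1, the mitochondrial HSP90, had 0.24 and 0.25 with Hsp90ab1. Each of these was the 1 gene counted in its list, among 4 other HSP70 genes, 12 J-domain proteins and 6 mitochondrial genes. Given genes above the floor, the mean rho with the 7 was 0.10 in place of 0.14 for Hspa9, 0.058 in place of 0.11 for Dnaja3 and 0.079 in place of 0.10 for Trap1. Of 5 exchange factors and HSP70 partners, Stub1, a ubiquitin ligase that takes clients from HSP70, was counted, with 0.22 and 0.22 with Hspa8. Of 10 endoplasmic reticulum genes, Canx was counted (0.23 and 0.21 with Hspe1) and 5 lay above the median gene. With 1 gene counted in lists of this size, none is shown to differ from the 8.36% of all genes. Calr and the mitochondrial protease Yme1l1 had the lowest mean rho of the network, at -0.06 each.

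Hsf1, the transcription factor of the heat shock response, was detected in 27 cells (14.8%), and its mean rho with the 7 was -0.00. Among 3 heat shock factors and regulators, 0 were counted. All 5 housekeeping genes, Actb, Gapdh, Eef1a1, Tubb5 and B2m, lay above the median gene too, with a median rho of 0.07, and 0 of 5 were counted.

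**Figure D5:**
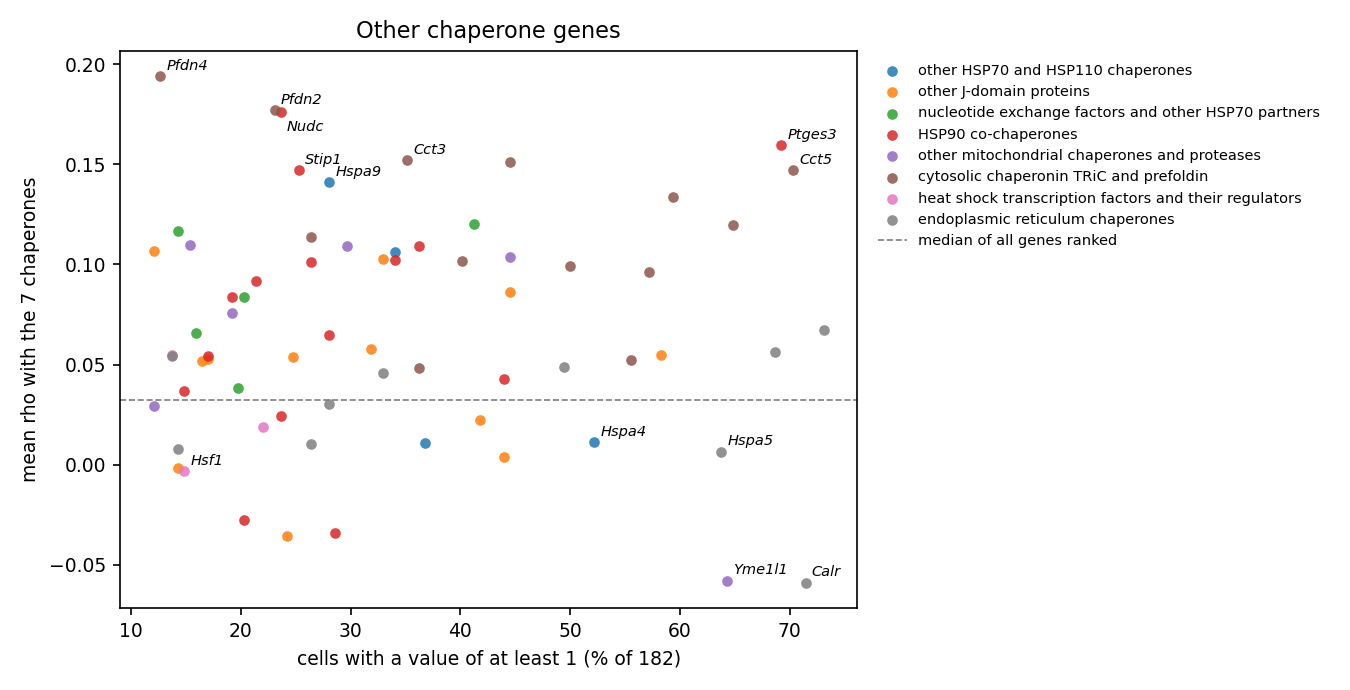
Each point is another chaperone gene detected in at least 10% of cells of both sets, placed by its share of cells and by its mean Spearman's rho with the 7 chaperones, and coloured by list. The dashed line is the median of all genes ranked, 0.032; all TRiC and prefoldin points lie above it, and Calr and Yme1l1 are the lowest.

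The genes most like each member were ranked by mean rho over both sets among 4637 genes. The top of such a ranking is high by selection. Members differed in how many genes they had past 0.2 in both sets, from 199 (4.29%) for Hspe1, 127 (2.74%) for Hsp90ab1 and 73 (1.57%) for Hspd1 to 41 (0.884%) for Hsph1, 17 (0.367%) for Dnaja1, 12 (0.259%) for Hsp90aa1 and 7 (0.151%) for Hspa8. Hspe1 and Hsp90ab1 were also the members with the highest rho with genes above the floor.

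Hspa8 was most like Nob1, a factor that matures the small ribosomal subunit, at 0.35 in set 1 and 0.29 in set 2, followed by Adss, Nsun2, Rps24 and Sf3a3. Its lowest were Cdca4 (-0.29) and the interferon regulator Irf7 (-0.28). Dnaja1 was most like the chromatin protein Hmgb1 (0.17 and 0.37), then Vcpip1, Cnbp, Snrpb and Nsmce1, and lowest with the B cell transcription factor Pou2f2 and with Slc41a2. Hsph1 was most like Aldh18a1, an enzyme of proline synthesis (0.37 and 0.29), then Tbrg4, Ccz1, Timm17b, a subunit of the mitochondrial import channel, and Pfdn2. Its lowest was 5430417L22Rik (-0.28).

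Hsp90aa1 was most like Cbx1, a heterochromatin protein (0.32 and 0.24), then Gm11974, Mcm5, part of the DNA replication helicase, Ybx3 and Utp14a, with Mapk8ip3 and Mif4gd lowest. Hsp90ab1 ranked highest with Gm13498 (0.41 and 0.56). That gene is annotated as a processed pseudogene, and it aligned to Hsp90ab1 over 269 bases at 94.8% identity, so reads from one may have been counted for the other and the value is uncertain. Next came Stmn1, Pfdn4, Rplp2-ps1 and Mif, and the lowest were Pld4 and the nuclear RNA Malat1 (-0.35 and -0.19). Smu1, which overlaps Dnaja1 with 608 bases in common, had 0.18 and 0.09 with it.

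Hspd1 was most like Nhp2, a protein of the particles that modify ribosomal RNA (0.43 and 0.38), then Mdh1, Snx1, Exosc7 and Ube2v1, with Pou2f2 and Lars2 lowest. Its chaperonin partner Hspe1 stood at rank 9 of 4637 in that ranking. Hspe1 was most like Fkbp1a, a prolyl isomerase (0.26 and 0.56), then Txnl1, a thioredoxin-like protein, Ccna2, the cyclin of S phase and G2, Ndufb7, a subunit of respiratory complex I, and Tomm22, a receptor of the mitochondrial import pore. Lars2 and the B cell receptor inhibitor Cd22 were lowest, at -0.31 and -0.29. Hspd1 stood at rank 41 for Hspe1.

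Ranked by the mean over all 7 members, the 10 genes most like the chaperones were Nhp2 (0.22), Txnl1, Stmn1, Ndufb7, Ran, which drives nuclear transport, Snx1, Rpl41, Suclg1, Pfdn4 and Pa2g4 (0.19). None of the 10 was past 0.2 in both sets with more than 4 of the 7. Given the number of genes above the floor, 6 stayed among the 10, led by Ran (0.16) and Pfdn4 (0.16).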

How the data were processed

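The deposited table holds 1 normalized signal per gene and cell, not on a log scale, and the sources used here do not give its starting unit or normalization. Per the submitters' processing notes, TopHat2 2.0, Cufflinks 2.2, Cuffdiff and the mm10 build were used. The table had 17035 rows, and the symbol on 2 rows was kept from 1. No read counts were used, so the depth of each cell is unknown and no count model was run. Members and lists were chosen with earlier results of these data known.

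Cells were grouped by the labels into 1 group, and by column into 2 sets. Spearman's rho was taken within each set and averaged. A relation was counted at 0.2 or more, or -0.2 or less, in both sets, over genes detected (value of 1 or more) in at least 10% of cells of both sets. Scores used a pseudocount of 1. Partial rho held the number of genes above the floor fixed. The members, all genes of the network lists, 7 single markers, the 5 highest and 2 lowest genes for each member and the 10 highest overall could be named, except that 1 of the lowest genes is not reported here. Alternatives were other detection values, pseudocounts, ranks over all cells, Pearson's r and subsets of cells. Python 3.11.15, NumPy 2.4.6, pandas 2.3.3 and SciPy 1.17.1 were used, and the calculations were tested on simulated data. Gene coordinates are from GENCODE (GRCm38) and promoters from RefSeq.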

Additional observations from a re-analysis of the deposited data

How the results depend on the processing

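Of 85 values for the main results under alternatives, 25 moved by more than the size allowed for no change (the SD between both sets for a rho, the interval for a share, 1.5 times for a count); of 201 values for single genes and pairs, 69 did. The sign changed in 5 of the 85 values, for scores with which no member was counted. With Pearson's r and partial rho, the light zone median of -0.02 was 0.025 and 0.0042, and the immediate early median of -0.07 was 0.010 and 0.0045. The G2/M median of 0.11 was -0.0012 with Pearson's r. The cause was not tested. The median share of cells was 29.1%, against 21.4% at a value of 5 or more and 47.8% above the floor. The median rho over the 21 pairs was 0.14, against 0.091 with ranks over all cells, 0.085, 0.093 and 0.085 for Pearson's r with pseudocounts of 1, 0.1 and 10, 0.10 for partial rho and 0.13 without the 10% of cells lowest in genes above the floor. The 3 pairs counted became 5 with ranks over all cells, 1 with each Pearson setting and 0 with partial rho. The median rho with the S phase score was 0.10, against 0.026 for partial rho. For the proteasome it was 0.15, against 0.11 with ranks over all cells, 0.12 for Pearson's r, 0.050 for partial rho, and 0.17 and 0.093 with pseudocounts of 0.1 and 10 in the score. For TRiC and prefoldin it was 0.22, against 0.14 with ranks over all cells, 0.16 for Pearson's r and 0.12 for partial rho. The 3 relations with single markers became 1 with ranks over all cells and 0 with partial rho, alternatives chosen after seeing the data, as were those for the number of pairs. Of the 10 genes most like the chaperones, 6 stayed with partial rho. No paired analysis was possible because all cells belong to 1 group. The main limits are the unknown depth, the unknown number of animals, and values scaled apart in each set.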
